A study of Mus musculus with 6 samples.

Results

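The genes described here were 10 RNA-binding regulators of alternative splicing with known roles in skeletal muscle, namely *Mbnl1*, *Mbnl2*, *Mbnl3*, *Celf1*, *Celf2*, *Rbfox2*, *Rbm24*, *Rbm38*, *Ptbp1* and *Ptbp2*. They were taken by symbol from the count matrix, which holds 55401 genes, and each symbol stood on a single row. RNA-seq was performed on C2C12 cells, myoblasts of mouse muscle kept as a line and able to form myotubes when serum is withdrawn, 2 d post differentiation in medium with 2% horse serum, in 3 control and 3 *Phf2* KO libraries. *Phf2* encodes a demethylase of histone H3 lysine 9. Control cells, labelled wild type, had received a plasmid with Cas9 and the ZsGreen reporter but no *Phf2* guide. *Phf2* KO cells had received a pool of 4 guide plasmids with the same reporter. In both cases ZsGreen-positive cells were sorted and used without cloning, so the *Phf2* KO cells were a mixture of edited alleles. Each group came from a single sorted pool. A difference between the pools and an effect of *Phf2* loss therefore cannot be told apart, and p-values measured only the spread between these libraries.

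Splicing regulators bind short RNA motifs in or beside exons and decide whether an exon is kept in the mature mRNA. In developing muscle, MBNL proteins promote adult exon choices, CELF proteins favour the embryonic ones at many of the same exons, RBFOX proteins act through GCAUG motifs, and RBM24 promotes the inclusion of many muscle exons. PTBP1 represses tissue-type exons in cells that are not yet differentiated, and it shares this role with its paralogue PTBP2, which is best known from neurons. Some of these proteins also act on mRNA decay: RBM24 and RBM38 bind the mRNAs of *Myog* and *Cdkn1a*, and CELF1 binds GU-rich sequences in mRNAs. MBNL proteins are captured by CUG repeats in myotonic dystrophy. The data here are levels per gene, so they hold the amounts of the regulators' RNA and not the exons that were chosen.

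Of the 10 genes, *Rbm24* and *Rbm38* fell in *Phf2* KO cells and *Mbnl1* rose, and the other 7 did not pass the test. Levels are given as CPM, counts relative to the library total after scaling by the trimmed mean of M values (TMM), and the test was edgeR's quasi-likelihood test over 17310 genes with Benjamini-Hochberg adjustment and a threshold of 0.05. Over all genes tested, 6.48% passed, 3.22% higher and 3.26% lower in *Phf2* KO. The 10 fold changes had a median of -0.04 on the log2 scale, beside -0.001 over all genes tested, and ran from -0.58 to 0.19. Without overlap between groups, 2 of the 10 genes lay higher and 4 lay lower in *Phf2* KO, where 12.9% of all genes tested lay higher and 12.2% lower without overlap, 25.1% in all. The summed level of the 10 genes was 1662 to 1675 CPM in control and 1622 to 1689 CPM in *Phf2* KO libraries.

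**Figure D1:**
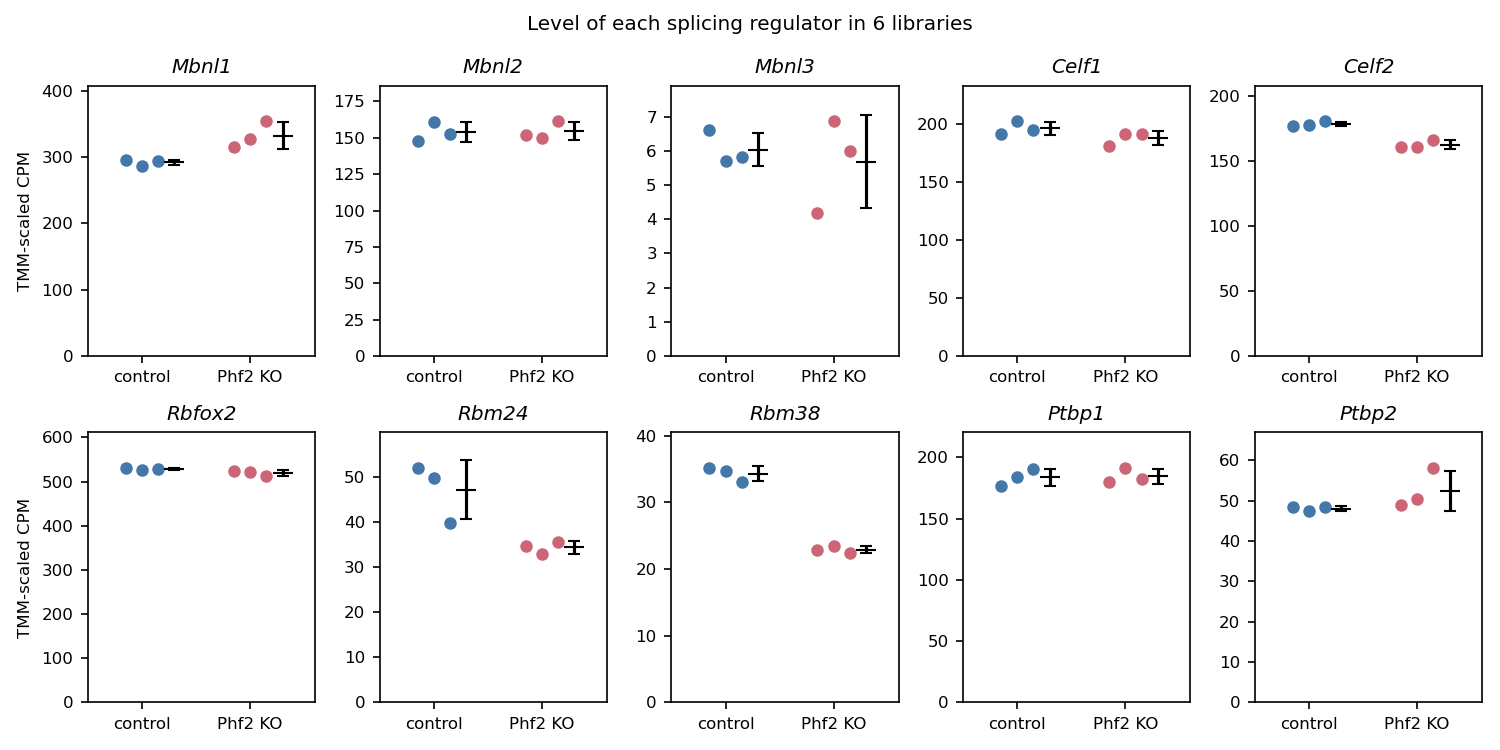
Level of each of the 10 splicing regulators in TMM-scaled CPM (vertical axis from 0, a different scale in each panel). Each dot is 1 library, and the black line and bar give the mean ± SD of 3 libraries. *Rbm38* and *Rbm24* lie lower in all 3 *Phf2* KO libraries, *Mbnl1* lies higher in all 3, and *Mbnl3* has the widest spread within *Phf2* KO.

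The libraries held 52526109 to 67502788 estimated counts each, with 56821143 to 58507833 in control. The mRNA of the targeted gene was lower: *Phf2* stood at 38.8% of its control CPM, with a log2 fold change of -1.37 ± 0.055 (SE) and an adjusted p of 8.32e-09 in edgeR. This value does not measure the PHF2 protein left, which the study measured separately and reported as reduced. The label of myotube was checked on marker genes. The 10 muscle differentiation markers summed to 8124 to 9530 CPM in control and to 6569 to 7276 CPM in *Phf2* KO libraries, with *Ckm*, *Des* and *Myh3* among 6 of 10 that fell and none that rose. Adipocyte, endothelial and immune markers summed to at most 2.30 CPM in any library. Of 7 neuron markers, 5 were under 1 CPM in every library, and *Stmn2* and *Tubb3*, which are read in these cells, fell. Fewer cells of a type and less RNA per cell cannot be told apart in such bulk samples, and this holds for every level below.

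Promoter sequences are shown for the 3 genes that passed the test, since these are the genes whose levels differed. The sequences are the 250 bases before the RefSeq start (GRCm38.p6, the build named mm10), 5′ to 3′, and capitals mark E-boxes, CANNTG, the motif of MyoD and myogenin. *Rbm24* lies on the plus strand of chromosome 13 (chr13:46418434-46431095) and its promoter at chr13:46418050-46418299. *Rbm38* lies on the plus strand of chromosome 2 (chr2:173020498-173034734) and its promoter at chr2:173021652-173021901. *Mbnl1* lies on the plus strand of chromosome 3 (chr3:60472830-60629750) and has 2 RefSeq starts. The second one is shown (chr3:60500929-60501178), since the transcripts assembled from these reads began there, as described further on.
Rbm24: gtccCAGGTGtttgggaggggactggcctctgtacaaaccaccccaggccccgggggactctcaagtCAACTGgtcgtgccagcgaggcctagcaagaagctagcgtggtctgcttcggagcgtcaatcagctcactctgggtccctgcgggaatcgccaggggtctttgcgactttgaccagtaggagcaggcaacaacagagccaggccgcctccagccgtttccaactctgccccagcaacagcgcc
Rbm38: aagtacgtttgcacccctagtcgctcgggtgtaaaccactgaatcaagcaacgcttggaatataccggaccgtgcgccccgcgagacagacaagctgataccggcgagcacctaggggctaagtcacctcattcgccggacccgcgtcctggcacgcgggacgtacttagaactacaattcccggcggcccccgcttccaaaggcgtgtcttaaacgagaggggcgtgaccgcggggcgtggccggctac
Mbnl1: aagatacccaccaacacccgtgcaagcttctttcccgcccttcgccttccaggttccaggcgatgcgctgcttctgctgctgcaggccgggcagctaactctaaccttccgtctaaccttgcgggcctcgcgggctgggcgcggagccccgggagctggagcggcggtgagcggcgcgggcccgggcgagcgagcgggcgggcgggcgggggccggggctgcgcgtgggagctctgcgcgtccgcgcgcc
The *Rbm24* promoter held 2 E-boxes, CAGGTG and CAACTG, beginning 246 and 183 bases before the start. The *Rbm38* promoter and the *Mbnl1* promoter shown held 0. Over the 14 RefSeq promoters that matched 9 of the 10 genes, 7 held an E-box, against 66.2% of all 32851 promoters of the same length. The MEF2 consensus, which like the E-box reads the same on both strands, was in 0 of the 14 and in 2.92% of all. A match is a description of the letters in this window. *Rbfox2* had no entry.

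*Rbm38* encodes an RNA-binding protein that stabilises *Cdkn1a* mRNA and supports the cell-cycle exit of myoblasts. Its levels were 35.2, 34.7 and 33.1 CPM in control and 22.9, 23.4 and 22.5 CPM in *Phf2* KO libraries. The groups lay far apart, and the libraries within each group lay close together. *Rbm38* fell by 0.58 on the log2 scale (SE 0.067, n = 3 per group), to 66.8% of control, with an adjusted p of 1.62e-04 in edgeR. It passed the threshold in all 13 alternative analyses of the 6 libraries and in all 6 that left out 1 library. An antisense gene that overlaps it, *Gm14453*, had a mean of 0.25 CPM in control.

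*Rbm24* encodes a protein of heart and skeletal muscle that both promotes muscle exons and stabilises *Myog* mRNA. It was read at 52.1, 49.8 and 39.7 CPM in control and at 34.7, 32.9 and 35.6 CPM in *Phf2* KO libraries. All *Phf2* KO libraries lay below all control libraries, but control replicate 3 lay closer to them than to the other controls. *Rbm24* fell by 0.46 on the log2 scale (SE 0.090), to 72.9% of control, with an adjusted p of 0.0101 in edgeR. The call was lost when control replicate 2 (adjusted p = 0.0622), *Phf2* KO replicate 2 (0.0614) or *Phf2* KO replicate 3 (0.0512) was left out, and in limma on log2(TPM + 1) (0.129) and log2(TPM + 0.1) (0.121). Control replicate 3 also had the lowest muscle marker sum among controls, at 8124 CPM beside 9507 and 9530 CPM in the other two; the part of this in the *Rbm24* level was not tested.

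Of the mRNAs that RBM24 and RBM38 bind, 2 were listed here, *Cdkn1a* and *Myog*, with earlier results of these data known. Both were lower, where 3.26% of all genes tested fell. *Cdkn1a*, which encodes the cell-cycle inhibitor p21, fell by 0.60 on the log2 scale (SE 0.041, adjusted p = 3.45e-06 in edgeR), and it passed in all 6 analyses that left out 1 library. *Myog*, which encodes myogenin, fell by 0.34 (SE 0.071, adjusted p = 0.0221 in edgeR), and it passed in 2 of these 6. For both genes the groups did not overlap, where 12.2% of all genes tested lay lower without overlap. *Myog* is also 1 of the 10 muscle markers above, which moved the same way, and whether the lower levels of either mRNA depend on *Rbm24* or *Rbm38* was not tested. The ratio of *Rbm38* to *Rbm24* overlapped between groups: its log2 value was 0.32 ± 0.15 (SD, n = 3) in control and 0.16 ± 0.097 in *Phf2* KO, on TPM, a unit that allows for transcript length, with a pseudocount of 0.1 (exact permutation test, two-sided, p = 0.3, smallest possible 0.1).

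**Figure D2:**
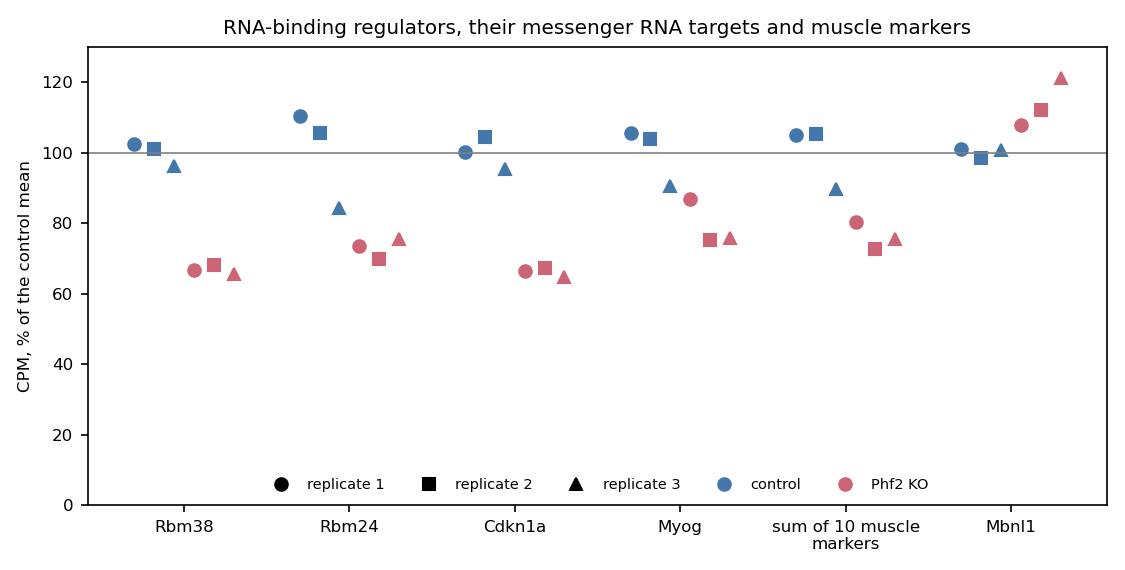
Level of 5 genes and of the sum of 10 muscle markers in each library, as a percent of the control mean in CPM (vertical axis from 0). Symbols give the replicate number and colours the group. *Rbm38* and *Cdkn1a* have narrow groups. Control replicate 3 is the lowest control for both, and also for *Rbm24*, *Myog* and the marker sum, where the gap is wider.

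Across the 6 libraries, the genes whose log2 CPM followed that of *Rbm38* most closely were *Dgkz* (Pearson's r = 0.999), *Musk* (0.999) and *Adamts7* (0.997), among 10916 genes averaging 5 CPM or more and above 0 in every library. *Musk* encodes the receptor kinase of the neuromuscular junction and *Dgkz* a diacylglycerol kinase. The 6 libraries form 2 groups, so a gene that differed between groups in the same way scores high here, and the values are a description only.

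*Mbnl1*, the most abundant MBNL gene here, was read at 294.5, 286.8 and 293.4 CPM in control and at 314.9, 327.3 and 353.7 CPM in *Phf2* KO libraries. The groups did not overlap, and *Phf2* KO replicate 3 was the highest. *Mbnl1* rose by 0.19 on the log2 scale (SE 0.047), with an adjusted p of 0.0290 in edgeR. The call was lost in the exact test of edgeR that the study names (adjusted p = 0.0825). It was also lost in limma on log2(TPM + 1) of reference rows (0.453). Those rows, described further on, held only 24.4% to 42.2% of the *Mbnl1* locus. In edgeR *Mbnl1* passed without *Phf2* KO replicate 1 (0.0172) but in none of the other 5 analyses that left out 1 library (0.0615 to 0.145).

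*Mbnl2* and *Mbnl3*, the paralogues, did not pass the test. *Mbnl2* was read at 148.1, 161.2 and 152.6 CPM in control and at 152.1, 150.1 and 161.4 CPM in *Phf2* KO libraries, with a log2 fold change of 0.01 and a 95% interval from -0.10 to 0.11. *Mbnl3*, which is linked to satellite cells and regeneration, was the lowest of the 10 genes, at 6.61, 5.70 and 5.82 CPM in control and 4.19, 6.87 and 6.0 CPM in *Phf2* KO libraries. Its interval, from -0.47 to 0.30, was the widest of the 10 and included changes as large as that of *Rbm24*.

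Within the MBNL family *Mbnl2* lay lower against *Mbnl1* in all *Phf2* KO libraries than in all controls on each scale, without passing a test. The log2 ratio of *Mbnl2* to *Mbnl1* was -0.92 ± 0.082 (SD, n = 3) in control and -1.10 ± 0.046 in *Phf2* KO on CPM, and the groups did not overlap. The log2 fold changes were 0.01 for *Mbnl2* and 0.19 for *Mbnl1*, so on CPM the ratio restates the rise of *Mbnl1*. On reference-row TPM, with a pseudocount of 0.1, it was -0.16 ± 0.37 in control and -0.82 ± 0.23 in *Phf2* KO. These rows held a varying part of each locus, 24.4% to 42.2% for *Mbnl1* and 36.4% to 54.0% for *Mbnl2*. The exact permutation test, two-sided, gave p = 0.1, the smallest that 3 against 3 libraries allow, and 0.25 after adjustment over the 5 ratios tested. On locus TPM, described further on, the difference was -0.25 in log2, with the same p. By the same exact permutation test the ratio of *Mbnl3* to *Mbnl1* differed between groups by -0.35 on reference rows (p = 0.1) and by -0.14 on locus TPM (p = 0.1), and overlapped between groups on CPM (p = 0.3).

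*Celf1* and *Celf2* encode CELF proteins that oppose MBNL proteins at many exons, and both had values below 0 that did not pass the test. *Celf2* was read at 177.1, 177.4 and 180.5 CPM in control and at 160.3, 160.7 and 166.2 CPM in *Phf2* KO libraries. The groups did not overlap and were narrow. Its log2 fold change was -0.13 (SE 0.042, 95% interval from -0.23 to -0.04), with an adjusted p of 0.0779 in edgeR and of 0.0367 in DESeq2, the one alternative of 13 in which it passed. *Celf1* was read at 191.3, 202.1 and 194.6 CPM in control and at 180.4, 190.9 and 191.4 CPM in *Phf2* KO libraries, and the groups overlapped (log2 fold change -0.06, 95% interval from -0.16 to 0.03). The ratio of *Celf2* to *Celf1* overlapped between groups on each scale.

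*Rbfox2*, the more abundant of the RBFOX genes tested, had the highest CPM of the 10 genes, at 531.4, 525.9 and 529.0 in control and 523.9, 522.2 and 511.9 in *Phf2* KO libraries. All *Phf2* KO libraries lay below all controls, by little. The log2 fold change was -0.03 with a 95% interval from -0.10 to 0.05, the narrowest of the 10. The brain and muscle paralogue *Rbfox1* was read at 10.5, 8.33 and 6.90 CPM in control and at 5.20, 6.26 and 3.74 CPM in *Phf2* KO libraries. It fell by 0.76 on the log2 scale (SE 0.20, adjusted p = 0.0422 in edgeR) and passed in 2 of the 6 analyses that left out 1 library. *Rbfox3*, known from neurons, had at most 0.14 CPM in any library and was not tested.

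*Ptbp1* and *Ptbp2*, the repressors of tissue-type exons, did not pass the test. *Ptbp1* was read at 176.8, 183.7 and 190.1 CPM in control and at 179.9, 191.5 and 182.4 CPM in *Phf2* KO libraries, with a log2 fold change of 0.01 and a 95% interval from -0.09 to 0.11. *Ptbp2* was read at 48.4, 47.4 and 48.4 CPM in control and at 48.9, 50.4 and 58.2 CPM in *Phf2* KO libraries, with a log2 fold change of 0.13 and an interval from -0.01 to 0.27. All *Phf2* KO libraries lay above the controls, and most of the distance came from *Phf2* KO replicate 3. Genes that overlap *Ptbp2* on the same strand, *Gm43300* and *Gm42664*, had 11.6% and 13.2% of its control CPM, and the *Plppr3* gene opposite to *Ptbp1* had 6.78%. Reads of same-strand neighbours may be shared whatever the strand setting. That setting was not given in the sources used here, so reads of *Plppr3* may be shared too.

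The third PTB gene, *Ptbp3*, did pass. It was read at 110, 106 and 115 CPM in control and at 129, 128 and 136 CPM in *Phf2* KO libraries. The groups did not overlap, and *Ptbp3* rose by 0.25 on the log2 scale (SE 0.046, adjusted p = 0.00490 in edgeR). The call was lost without control replicate 2 (0.0534) and held in the other 5 such analyses. Of the 7 paralogues of the 10 genes, 5 were tested, with *Ptbp3* higher, *Rbfox1* lower, and *Celf3*, *Celf4* and *Celf5* not passing, each under 4 CPM. *Rbfox3* and *Celf6* were not tested.

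**Figure D3:**
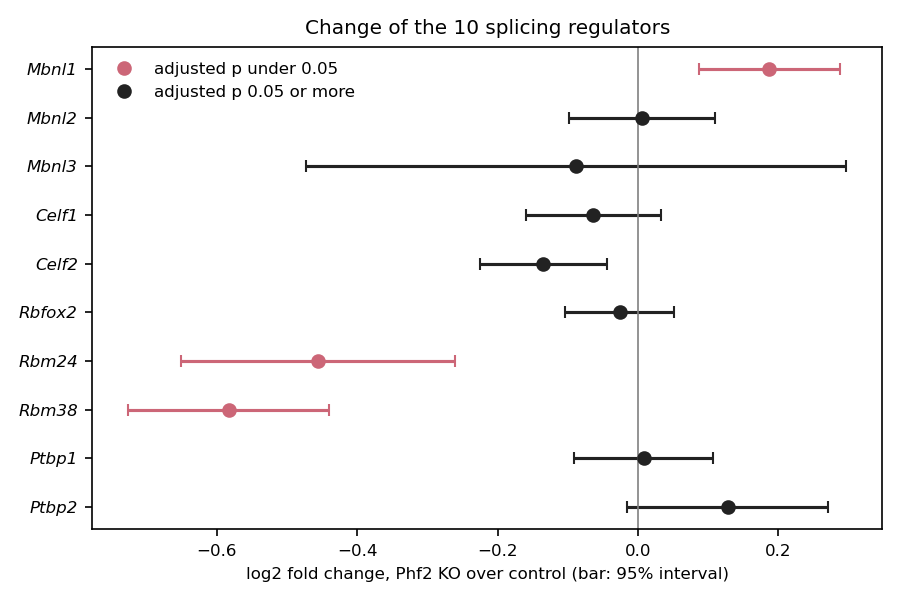
Log2 fold change of each splicing regulator, *Phf2* KO over control (horizontal axis), with its 95% interval from edgeR's quasi-likelihood fit as the bar. Red marks the 3 genes that passed at an adjusted p under 0.05. The interval of *Mbnl3* is the widest, and those of *Celf2* and of the 3 red genes leave out 0.

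CPM does not allow for transcript length, so levels between genes were compared in TPM. The tables of the single libraries give TPM on 2 kinds of rows, one for the annotated transcripts of a reference gene and one for the locus as the assembler built it from the reads, unannotated transcripts included. For *Rbm24*, *Rbm38* and *Ptbp1* both rows held nearly the same value, the reference row at 92.7% to 101% of the locus. For *Rbfox2* the reference row held only 21.9% to 31.8% of the locus, for *Mbnl1* 24.4% to 42.2%, for *Mbnl2* 36.4% to 54.0% and for *Mbnl3* 12.2% to 17.7%. For *Celf2* the share moved between 16.8%, 56.2% and 74.9% among the control libraries alone, while the CPM of the same libraries stayed within 177.1 and 180.5.

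A check on length showed the same. In 1-transcript genes, counts divided by TPM gave back the annotated length within 5% for 96.2% to 96.8% of genes in each library. For *Rbfox2* the reference row gave a mean transcript length of 18214 to 29144 bases, beyond its longest annotated transcript of 6907 bases, and the locus row gave 4911 to 6397 bases. For *Celf2* the reference row gave 7943 to 50565 bases and the locus row 5854 to 6417, with 8856 as the longest annotated. For *Mbnl1* the values were 10437 to 16453 bases and 4014 to 4406 bases, with 5655 as the longest. The locus row was therefore used for levels, a choice made after seeing the data. Reference-row TPM covered only part of the signal of *Mbnl1*, *Mbnl2*, *Mbnl3*, *Celf2* and *Rbfox2*. It held 60.1% to 91.3% of the locus for *Ptbp2* and 72.5% to 91.8% for *Celf1*. The locus row also passed the longest annotated transcript for *Mbnl3* in 3 libraries, reaching 5003 against 4649 bases. For *Ptbp2* this held in 2 libraries (4478 against 4047) and for *Rbm24* in 1 (3096 against 3086). Levels of *Mbnl3* and *Ptbp2* are therefore less certain.

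On locus TPM the order in control was *Rbfox2* (217 ± 17.3, SD, n = 3), *Mbnl1* (149 ± 7.96), *Ptbp1* (138 ± 5.97), *Mbnl2* (89.1 ± 2.78), *Celf1* (66.4 ± 2.36), *Celf2* (62.3 ± 3.37), *Rbm38* (42.3 ± 2.00), *Rbm24* (34.1 ± 5.12), *Ptbp2* (28.3 ± 4.14) and *Mbnl3* (2.79 ± 0.15). Neighbours whose control ranges overlapped were *Mbnl1* and *Ptbp1*, *Celf1* and *Celf2*, and *Rbm24* and *Ptbp2*. *Rbfox2* was 77.8-fold above *Mbnl3*. On reference rows *Celf1* would stand second and *Celf2* eighth. In *Phf2* KO libraries the first 6 places were the same, and *Ptbp2* (31.5 ± 7.18) stood before *Rbm38* (27.7 ± 1.01) and *Rbm24* (24.6 ± 1.04), with overlapping ranges for *Ptbp2* and both. Locus TPM gave *Rbm38* at 43.7, 43.3 and 40.0 in control and 26.5, 28.2 and 28.4 in *Phf2* KO libraries, and *Mbnl1* at 158.1, 143.9 and 144.7 in control and 160.1, 169.0 and 187.7 in *Phf2* KO libraries. Neither gene's groups overlapped.

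**Figure D4:**
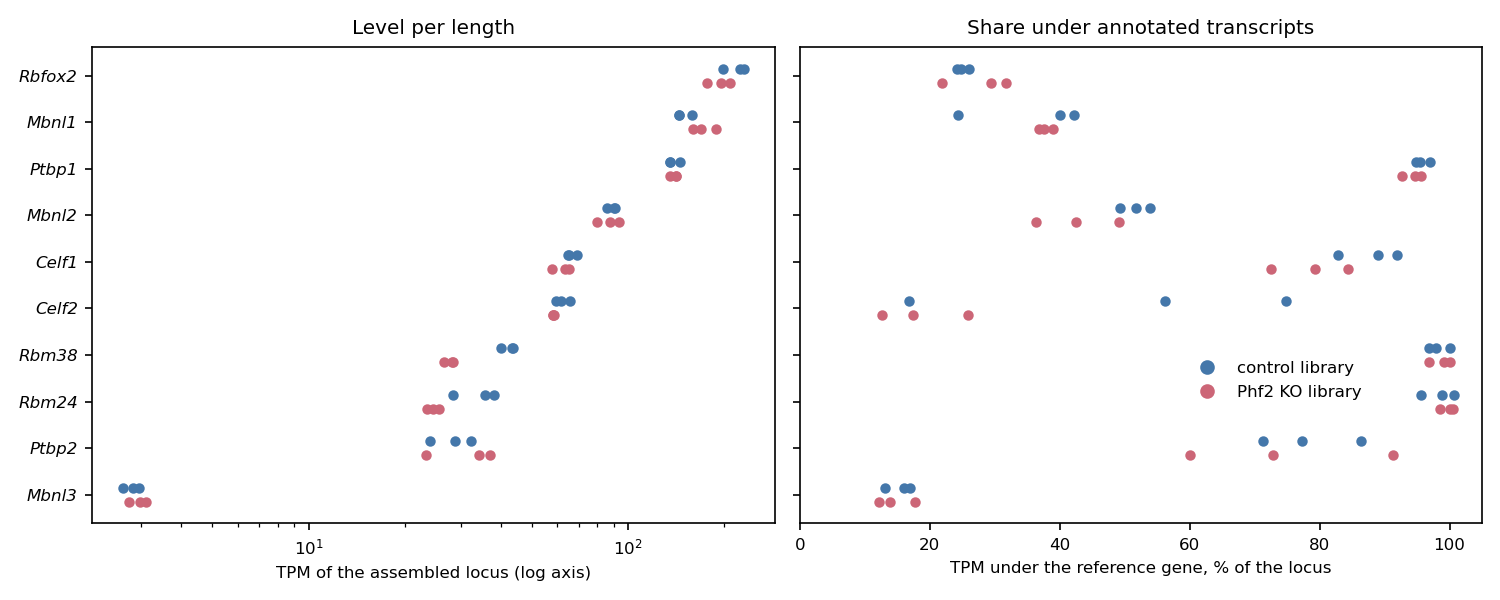
Left, TPM of the assembled locus of each splicing regulator in each library (log axis), ordered by the control mean. Right, TPM under the reference gene as a percent of the locus. The shares of *Rbm24*, *Rbm38* and *Ptbp1* sit near 100%, that of *Mbnl3* below 20%, and that of *Celf2* is spread from 12.6% to 74.9%.

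The start of each assembled locus was compared with the annotation. *Mbnl1* loci began 28333 to 28349 bases after the annotated gene start, within 16 bases of the second RefSeq start, in all 6 libraries. The GC content of the 250 bases before that start was 73.6%, against 38% at the first. *Celf2*, which spans 969870 bases on the minus strand of chromosome 2 (chr2:6539694-7509563), began 427823 to 428261 bases inside the annotated start, within 438 bases of the third of 5 RefSeq starts. *Rbm38* loci began within 3 bases of its RefSeq start, 1401 to 1404 bases inside the annotated start. *Rbm24*, *Rbfox2* and *Ptbp1* loci began at the annotated start, which for *Rbm24* is 134 bases after the RefSeq start. *Mbnl3* on chromosome X varied, from 542 to 42059 bases inside, at the lowest level of the 10. Control and *Phf2* KO loci began at the same RefSeq start for *Mbnl1*, *Celf2* and *Rbm38* at this resolution, which shows only where the assembly began.

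Other splicing factors were read from lists chosen by role, and 7 genes passed across 5 such lists. The lists had 11, 23, 12, 7 and 23 genes tested, and 6.48% of all genes tested passed. Of 21 other tissue-type regulators 11 were tested, and *Ptbp3* rose while *Rbm47* and *Rbfox1* fell (list median -0.11). *Rbm47*, known from epithelia, was low, at 1.84 to 2.42 CPM in control and 0.70 to 1.25 CPM in *Phf2* KO libraries, and fell by 1.20 on the log2 scale (SE 0.29, adjusted p = 0.0222 in edgeR). It passed in 1 of 6 analyses that left out 1 library. *Elavl4* and *Esrp1* were at 0 in every library.

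Among 23 widely expressed regulators, 3 rose and 0 fell, with a list median of 0.08. Of all genes tested, 3.22% rose and 3.26% fell. *Sfpq*, a nuclear factor of long introns and paraspeckles, rose by 0.17 on the log2 scale (SE 0.043, adjusted p = 0.0312 in edgeR). *Tia1*, a U-rich binding protein of stress granules, rose by 0.17 (SE 0.046, adjusted p = 0.0414), and *Tra2a* by 0.15 (SE 0.043, adjusted p = 0.0475). These calls were close to the threshold: the first 2 passed in 1 of 6 analyses that left out 1 library and *Tra2a* in 0 of 6, and *Tra2a* had an adjusted p of 0.0514 when replicate numbers entered the fit as a block.

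The SR proteins, which promote exon inclusion, had 0 of 12 tested genes past the threshold, with a median of 0.06, and *Srsf7* had the smallest p (log2 fold change 0.16, adjusted p = 0.104 in edgeR). At an unadjusted p under 0.05 there were 2, both higher, and DESeq2 called 0. The hnRNP proteins, many of which repress exons, had 0 of 23 past the threshold, with a median of 0.07. Above 0 lay 11 of 12 SR proteins, 15 of 23 widely expressed regulators, 5 of 7 SR protein kinases and 5 of 11 other tissue-type regulators. In the hnRNP list 20 of 23 lay above 0, beside 49.8% of all genes tested. The largest log2 fold change, 0.79, was that of *Hnrnpa3*, which was low in control replicate 2 (7.09 CPM), as described further on. *Hnrnpll* had the smallest p (log2 fold change 0.18, adjusted p = 0.0773 in edgeR). At an unadjusted p under 0.05 there were 5, all higher, and DESeq2 called 1, *Hnrnph1*. Leaving out 1 library gave at most 1 call in either list: *Srsf7* without *Phf2* KO replicate 1, *Hnrnph1* without the same library, *Hnrnpa3* without control replicate 2 and *Hnrnpll* without control replicate 3. Of the 7 kinases of SR proteins, *Srpk3*, the muscle member under MEF2 control, fell by 0.53 on the log2 scale (SE 0.14, adjusted p = 0.0337 in edgeR) and passed in 2 of 6 analyses that left out 1 library, and the other 6 did not pass. *Srpk3* was read at 13.7, 11.3 and 10.7 CPM in control and at 9.58, 7.29 and 7.82 CPM in *Phf2* KO libraries, so that the groups did not overlap.

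Genes with muscle exons under the control of these regulators were measured as whole genes. Of 23, 10 fell and 0 rose, with a median of -0.27, where 3.26% of all genes tested fell and 3.22% rose. *Mef2c*, a transcription factor of late myogenesis, fell by 1.52 on the log2 scale (SE 0.13, adjusted p = 6.97e-05 in edgeR), *Cacna1s*, the voltage sensor of the triad, by 0.74 (SE 0.075, adjusted p = 1.28e-04) and *Tnnt2*, a troponin of embryonic muscle, by 0.54 (SE 0.052, adjusted p = 5.99e-05). Each passed in all 6 analyses that left out 1 library. In this list 6 of 23 lay above 0, beside 49.8% of all genes tested. Among these were *Tpm1*, *Actn1* and *Pdlim5*, with log2 fold changes of 0.09 each, which did not pass. Many genes of this list are muscle genes, like the marker sum above, and the part of the marker sum in the list was not tested.

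**Figure D5:**
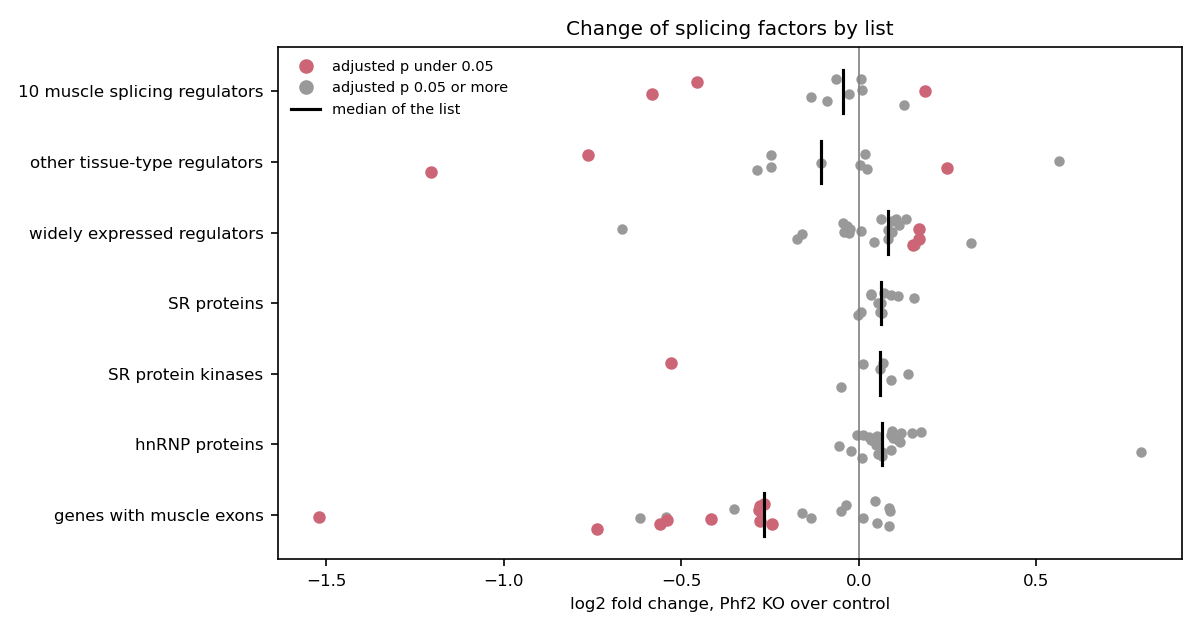
Log2 fold change of each tested gene, *Phf2* KO over control (horizontal axis), by list. Red marks genes past an adjusted p of 0.05 and the black line the median of a list. The SR and hnRNP lists have medians of 0.06 and 0.07 and no gene past the threshold. The hnRNP gene farthest to the right, at 0.79, is *Hnrnpa3*, which was low in control replicate 2. The list of genes with muscle exons has a median of -0.27.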

How the data were processed

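Polyadenylated RNA was sequenced from 6 libraries with a directional kit and 150-base paired-end reads. The authors aligned reads to mm10 with HISAT2 and obtained values per gene with StringTie. The deposited matrix holds estimated counts per gene, which were rounded here. The deposited tables of single libraries hold signal in TPM (transcript abundance relative to the library total) per reference gene and per assembled locus, while their coverage and FPKM columns were not used. An assembled locus was matched to a gene by the largest overlap on the same strand. Low counts were removed by filterByExpr with a minimum of 10, and TMM-scaled libraries were compared by glmQLFit and glmQLFTest in edgeR 4.0.16 (R 4.3.3). In simulated counts with 190 changed genes, this test called 128 genes, 11 of them falsely. It recovered 71.0% of 2-fold and 52.6% of 1.5-fold changes, so a gene that did not pass may still have changed. Depth was 52526109 to 67502788 estimated counts per library, and precision is given as SE or 95% intervals, which cover the spread between these libraries. Alternatives were the exact test of edgeR, which the study names, DESeq2 1.42.0 and limma 3.58.1 on log2(TPM + 1) of reference rows. Other scalings and filters, a replicate block and leaving out each library were further alternatives. Ratios of reference-row TPM, with a pseudocount of 0.1, were compared by exact permutation with scipy 1.17.1, with CPM and locus TPM as alternatives. Libraries of 1 group held equal counts for 12 to 42 of the 12697 or more genes with 100 or more counts, so none was treated as a repeat. Labels number the replicates 1 to 3 in both groups. Same-numbered libraries deviated together from their group means (r = 0.250, 0.236 and 0.158 over 10923 genes). Pairs with different numbers did not, but these values rest on the same group means and are no separate evidence. The numbers were therefore treated as a possible pairing. This pairing entered alternatives only, while the main fit and the main ratio tests left it out. Coordinates and overlaps come from GENCODE M21, and promoters from RefSeq.

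The 10 genes and the lists were chosen with earlier results of these data known. Named besides the 10 are *Phf2*, the 2 mRNA targets listed and the paralogues of the 10. Up to 3 genes per list past the threshold are also named, by smallest p, or otherwise the 1 with the smallest p. The 3 genes most correlated with *Rbm38* are named too. Marker genes, *Tpm1*, *Actn1*, *Pdlim5*, *Hnrnph1*, *Hnrnpa3*, overlapping genes and genes at 0 were named after their values were seen.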

Additional observations from a re-analysis of the deposited data

How the results depend on the processing

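The numbers of the 10 genes past the threshold, 1 higher and 2 lower, were the same in 9 of 13 alternatives on all 6 libraries. In DESeq2 3 were lower, with *Celf2* added. The number higher was 0 in the exact test of edgeR and in limma on log2(TPM + 1) and log2(TPM + 0.1), and 0 to 1 when 1 library was left out. The number lower was 1 in both limma analyses and 1 to 2 with 1 library left out. The 7 calls in the other splicing lists became 4 in the exact test, 3 in limma-voom, 0 in both limma analyses of TPM and 1 to 8 with 1 library left out. All genes past the threshold, 1122, became 127 and 153 in limma on log2(TPM + 1) and log2(TPM + 0.1), and 468 to 1039 with 1 library left out. Of the 19 named genes past the threshold, 4 passed in limma on log2(TPM + 1): *Phf2*, *Rbm38*, *Cdkn1a* and *Cacna1s*. Both limma analyses of TPM used reference rows, which hold only part of the locus for some genes. For *Mbnl2* these rows held 49.3% to 54.0% of the locus in control and 36.4% to 49.1% in *Phf2* KO libraries. Its mean locus TPM was 89.1 in control and 87.0 in *Phf2* KO. Directions turned only for genes that did not pass: *Celf5* (-0.0062 in limma-voom, -0.0024 in limma on log2(TPM + 0.1)), *Mbnl2* (-0.0048 with upper-quartile scaling, -0.31 and -0.32 in limma on TPM), *Ptbp1* (-0.0018 with upper-quartile scaling, -0.013 in both limma analyses). With 1 library left out they ran from -0.076 to 0.15 for *Celf5*, from -0.027 to 0.039 for *Mbnl2*, from -0.021 to 0.032 for *Ptbp1*, from -0.64 to 0.12 for *Celf4* and from -0.24 to 0.090 for *Mbnl3*. The difference between groups (*Phf2* KO minus control) in the log2 ratio of *Celf2* to *Celf1*, -1.03 on reference-row TPM, was 0.0062 on locus TPM, where the reference rows hold a varying share of the locus. The same difference for *Ptbp2* to *Ptbp1*, 0.07, was -0.090 to 0.17 with 1 library left out. With the replicate number as a block, 1316 genes passed, the calls of the 10 genes were the same, and among the 19 only *Tra2a* lost its call. The cause was not tested where none is given. At 3 libraries per group an exact permutation test of a ratio cannot pass 0.05.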

Other observations

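*Hnrnpa3* and *Raver1*, which encode an hnRNP protein and a co-repressor of PTBP1, had low counts in a single library. *Hnrnpa3* was read at 56.7, 7.09 and 59.6 CPM in control and at 71.6, 66.4 and 76.1 CPM in *Phf2* KO libraries, while its reference-row TPM in control was 23.2, 23.9 and 24.5. *Raver1* was read at 74.2, 24.8 and 78.0 CPM in control, with reference-row TPM of 50.4, 54.2 and 51.0. In both, control replicate 2 was low in counts and not in TPM, and neither gene passed the test with all 6 libraries. Without control replicate 2, *Hnrnpa3* had a log2 fold change of 0.29 and passed (adjusted p = 0.0456 in edgeR), and *Raver1* had -0.05 and did not. Both were named after their values were seen.

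Myoblast markers were read beside the muscle markers. *Myf5* was read at 33.6, 33.7 and 38.3 CPM in control and at 37.2, 40.2 and 39.0 CPM in *Phf2* KO libraries, and *Vcam1* at 167 to 183 CPM and 180 to 190 CPM. None of the 3 tested myoblast markers passed the test, and their log2 fold changes were 0.10 to 0.17. *Myod1* had a log2 fold change of -0.18 (adjusted p = 0.0679 in edgeR).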
